A study of Mus musculus with 15 samples.

Results

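The mRNA of 9 transcription factors that shape macrophage and dendritic cell identity (Maf, Irf4, Irf5, Irf8, Spi1, Cebpa, Cebpb, Cebpd and Id2) was followed in mouse bone marrow-derived macrophages (BMDMs) with and without STAT5. The 9 genes were taken by name from a table of 55385 genes, and all 9 were among the 13005 that passed a filter on low counts. They were chosen with earlier results of these data known, so the shares of them called below are a description. BMDMs came from 6-week-old BALB/c mice. STAT5fl/fl mice carry floxed Stat5 alleles, and STAT5cKO mice carry the same floxed alleles with Csf1r-iCre, a Cre driven by the promoter of the macrophage colony-stimulating factor receptor gene that is also active in other myeloid cells and in some lymphocytes. Before lysis, both kinds of BMDM spent 2 h in serum-free DMEM, in recombinant mouse GM-CSF (rmGM-CSF, 20 ng/mL) or in 4T1 CM, medium that serum-starved 4T1 cells, a mouse mammary tumor line, had conditioned. Each of the 3 treatments had 2 STAT5fl/fl libraries (numbered 112 and 113 in the labels) and 3 STAT5cKO libraries (numbered 114, 115 and 116), which gave 15 RNA-seq libraries in 6 groups. The paper reports that a STAT5fl/fl biological replicate had been removed because of quality control.

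Spi1 encodes PU.1, the ETS factor that opens macrophage enhancers, and Cebpa encodes C/EBPα, which acts with it in granulocyte and monocyte progenitors. C/EBPβ and C/EBPδ are related factors of the inflammatory response. IRF4 and IRF8 bind DNA together with PU.1 or BATF proteins and serve different dendritic cell subsets, IRF5 drives inflammatory cytokine genes, MAF acts in mature macrophages, and ID2 is an inhibitor that binds E proteins. GM-CSF signals through JAK2 to STAT5A and STAT5B, whose dimers bind the palindrome TTCNNNGAA.

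The 250 bases before the RefSeq start site are shown for the interferon regulatory factor genes Irf4, Irf5 and Irf8. These genes were lower in STAT5cKO BMDMs with rmGM-CSF, as was Id2, whose window is described below. The windows were read from RefSeq for build GRCm38.p6, which held starts for 6 of the 9 genes and none for Maf, Spi1 or Cebpd. Capitals mark matches, on either strand, to TTCNNNGAA or to GGG, any 5 bases and CC, a loose pattern for NF-κB, and the windows lie on the plus strand at chr13:30748983-30749232 (Irf4), chr6:29526375-29526624 (Irf5) and chr8:120736108-120736357 (Irf8).
Irf4: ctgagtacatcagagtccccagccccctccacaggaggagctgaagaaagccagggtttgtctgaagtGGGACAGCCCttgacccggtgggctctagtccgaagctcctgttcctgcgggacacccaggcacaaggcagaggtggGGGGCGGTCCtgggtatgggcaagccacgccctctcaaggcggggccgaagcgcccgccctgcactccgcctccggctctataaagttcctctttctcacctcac
Irf5: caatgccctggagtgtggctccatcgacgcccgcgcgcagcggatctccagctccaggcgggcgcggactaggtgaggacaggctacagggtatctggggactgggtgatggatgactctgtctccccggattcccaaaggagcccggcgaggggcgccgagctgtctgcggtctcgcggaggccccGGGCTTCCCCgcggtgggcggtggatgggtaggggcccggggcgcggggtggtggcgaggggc
Irf8: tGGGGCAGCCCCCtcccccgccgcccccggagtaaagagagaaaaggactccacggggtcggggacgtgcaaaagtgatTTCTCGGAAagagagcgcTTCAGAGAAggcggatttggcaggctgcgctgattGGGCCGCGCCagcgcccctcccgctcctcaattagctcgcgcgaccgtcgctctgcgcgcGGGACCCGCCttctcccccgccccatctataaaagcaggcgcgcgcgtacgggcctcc

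Among the 7 windows of the 6 genes with an entry, TTCNNNGAA was found only before the first start of Irf8, with its first bases 171 and 153 bases upstream (TTCTCGGAA and TTCAGAGAA). The same letters occur in 7.02% of 32851 RefSeq promoter windows of this length. The NF-κB pattern occurs in 45.8% of those windows and was found before Irf4, Irf5, Irf8, Cebpa and Cebpb. Of the other patterns searched on both strands, GAAA, any 2 bases and GAAA (interferon-stimulated response element, 2.98% of windows) and TTGCNNAA (C/EBP, 9.56%) were in no window of these genes. None of the 4 patterns was in the window of Id2, which is not printed because it overlaps an untranslated exon of another Id2 transcript. The letters are a description of these windows and do not show that a factor binds them.

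Library totals ranged from 16016736 to 22883108 counts, with a median of 21379480. Levels are given as normalized CPM, the count scaled to the size of the library. Taking 3 counts as the floor, the lowest CPM that the depth can show lay between 0.123 and 0.192, which covers counting error only, and the lowest count of any of the 9 factors was 98 (Irf4). Comparisons used the quasi-likelihood F test of edgeR, and a gene is called when its Benjamini-Hochberg adjusted p over all 13005 genes is under 0.01. The methods call the libraries of a group biological replicates, but the labels do not tie them to separate mice, and the p-values measure the spread between these libraries. Stat5a lay between 29.0 and 45.0 CPM in the STAT5fl/fl libraries and at 0.142 CPM or less in STAT5cKO, and Stat5b lay between 60.8 and 77.7 and at 0.189 or less, so the deletion matched every label. Cish, a feedback gene downstream of STAT5, stood at 148 ± 2.29 CPM (SD, n = 2) in STAT5fl/fl BMDMs with rmGM-CSF and at 2.29 ± 0.327 (n = 3) in STAT5cKO.

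All 10 macrophage markers passed the filter, with Csf1r between 3821 and 4199 CPM in every library. The sum of the 10 was higher in every STAT5cKO library (31243 to 46726.5 CPM) than in any STAT5fl/fl library (24864 to 30212), led by Lyz2, although 6 of the 10 had the higher mean in STAT5fl/fl within each treatment. Of 8 dendritic cell markers only Zbtb46 and Kit passed, Flt3 had 0 to 4 counts and Xcr1 0 or 1. Their sum, mostly Kit, was 17.1 to 21.8 CPM in STAT5fl/fl and 6.87 to 10.004 in STAT5cKO with DMEM. It was 22.1 to 28.7 and 7.21 to 10.1 CPM with rmGM-CSF, and 7.74 to 9.97 and 4.07 to 6.90 with 4T1 CM. The fibroblast sum, mostly Pdgfrb, was 4.18 to 8.68 CPM in STAT5fl/fl and 7.41 to 13.0 in STAT5cKO. Among T cell markers Cd4 lay between 5.79 and 10.4 CPM, with Cd3g and Cd8a at 0. Mammary tumor cell markers, mostly Cdh1, summed to 3.16 to 4.33 CPM in STAT5fl/fl and 1.23 to 2.17 in STAT5cKO with 4T1 CM. With rmGM-CSF they summed to 1.18 to 1.43 CPM in STAT5fl/fl, and to 0.136 or less in the remaining groups. The other markers of this list, Epcam, Krt8, Krt18 and Krt14, did not exceed 0.189 CPM in any library. Neutrophil, B cell, erythroid and mast cell sums did not exceed 2.50 CPM. In bulk RNA, fewer cells of a type and less RNA per cell cannot be told apart.

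The 9 factors covered a wide range of levels. Per kilobase of exon, Spi1 had the highest median over the 15 libraries, 134 FPKM (the normalized CPM divided by the kilobases of exon), followed by Irf5 with 129, Id2 with 107 and Cebpb with 85.5. Cebpa, Irf8 and Maf followed with 46.4, 35.8 and 24.7 FPKM, and Cebpd (4.93) and Irf4 (1.65) were the lowest. Spi1 was also the steadiest, with a highest library 1.72 times its lowest, against 7.32 times for Cebpb and 6.61 times for Irf4.

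**Figure D1:**
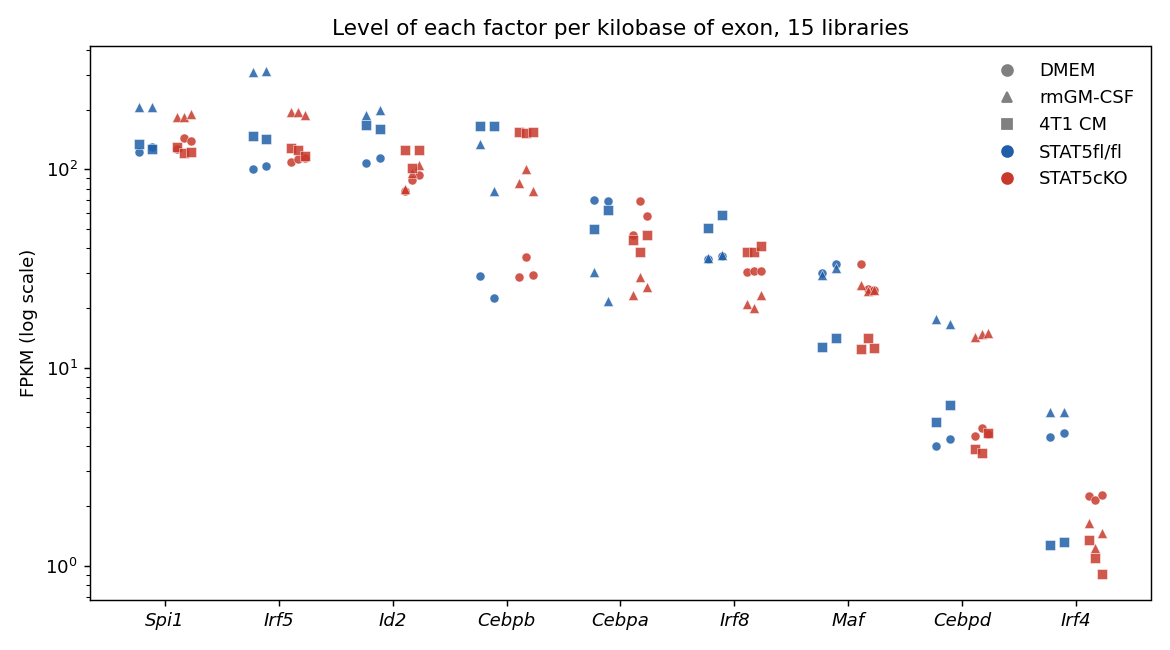
FPKM of each factor on a log axis in the 15 libraries, ordered by the median; colour gives the genotype and the symbol the treatment. Spi1 spans the narrowest range, a factor of 1.72 between its extreme libraries, against 7.32 for Cebpb and 6.61 for Irf4.

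The factor at the top of the order depended on the treatment. With DMEM it was Spi1 in both genotypes (126 ± 5.34 FPKM in STAT5fl/fl, n = 2, and 137 ± 9.20 in STAT5cKO, n = 3). With rmGM-CSF Irf5 led, at 311 ± 3.06 FPKM against 207 ± 0.967 for Spi1 in STAT5fl/fl, whereas in STAT5cKO the libraries of Irf5 (193 ± 4.87) and Spi1 (186 ± 4.42) overlapped. With 4T1 CM Cebpb led, at 165 ± 0.172 FPKM in STAT5fl/fl, where its libraries overlapped those of Id2 (163 ± 5.04), and at 154 ± 1.40 in STAT5cKO. Other neighbours that overlapped were Maf and Cebpa in STAT5fl/fl with rmGM-CSF, Cebpa and Irf8 in both genotypes with 4T1 CM, Cebpb, Irf8 and Maf in STAT5cKO with DMEM, Id2 and Cebpb as well as Cebpa and Maf in STAT5cKO with rmGM-CSF, and Spi1, Irf5 and Id2 in STAT5cKO with 4T1 CM. Irf4 was the lowest in every group except STAT5fl/fl with DMEM, where Cebpd (4.20 ± 0.228) was below it (4.56 ± 0.165).

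**Figure D2:**
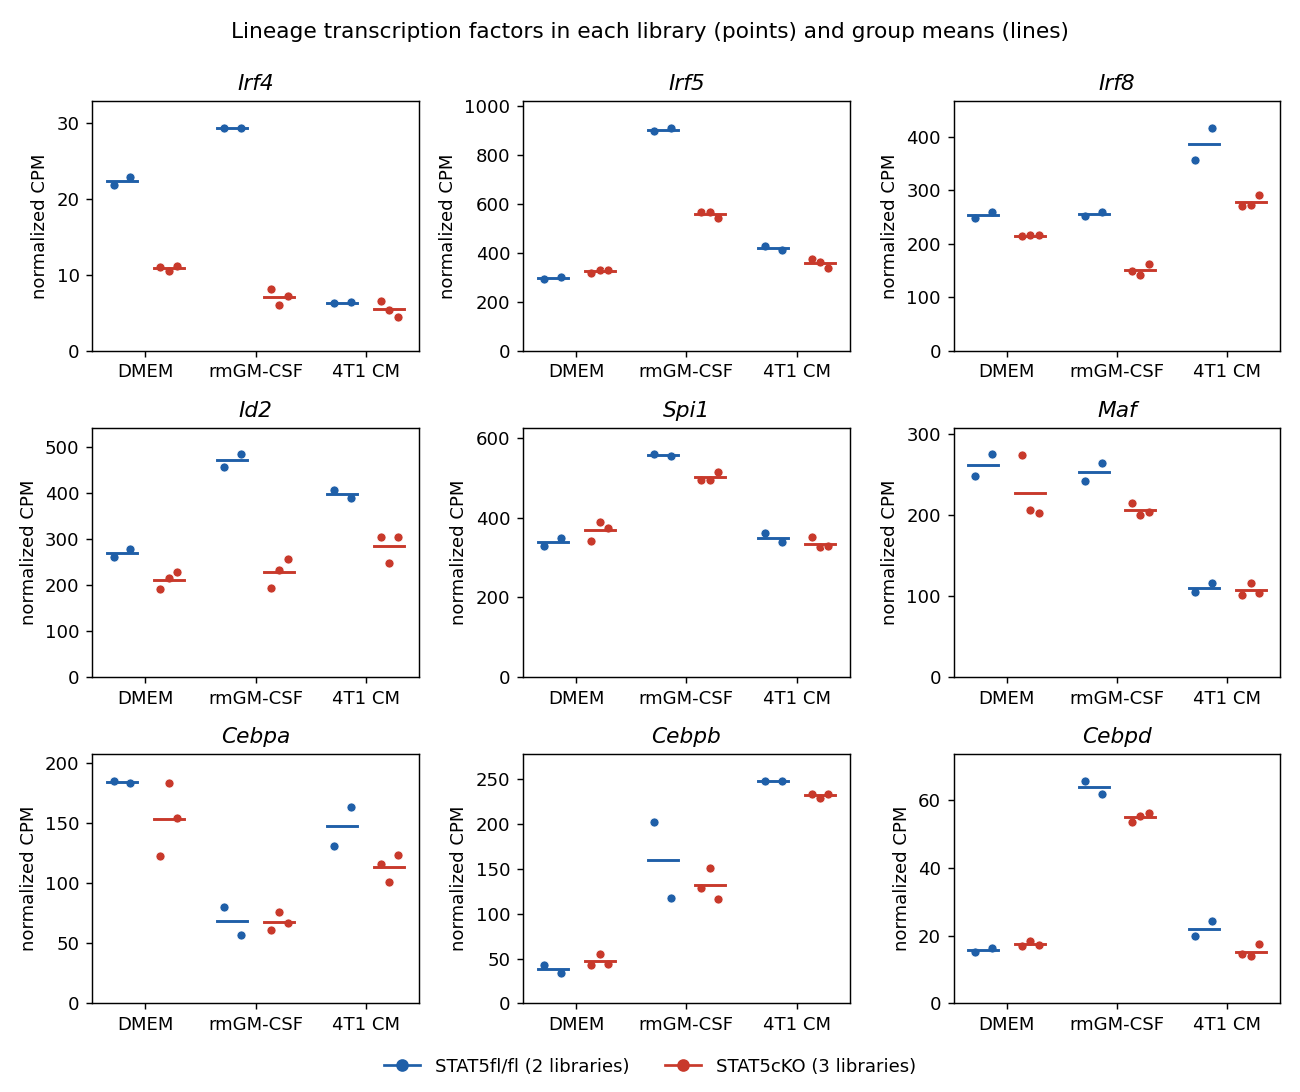
Normalized CPM of the 9 factors in every library (points) with the group mean (line), STAT5fl/fl in blue and STAT5cKO in red, by treatment on the horizontal axis. In rmGM-CSF, Irf4, Irf5, Irf8 and Id2 are called between the genotypes, and the points of Maf, Spi1 and Cebpd also do not overlap without being called. Cebpa and Cebpb differ mainly between treatments.

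To see which factors depend on STAT5, the genotypes were compared within each treatment. With rmGM-CSF, 4 of the 9 factors were lower in STAT5cKO BMDMs, namely Irf4, Irf5, Irf8 and Id2, and none was higher. Over all genes tested 9.8% were called in this comparison, 6.24% lower and 3.57% higher. The median log2 fold change of the 9 factors was -0.29, beside 0.00 (0.000475) over all genes, and all 9 estimates were below 0.

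Irf4 (ENSMUSG00000021356, GRCm38 chr13:30749226-30766976, plus strand) showed the largest genotype difference of the 9. With rmGM-CSF it was at 29.3 CPM in each STAT5fl/fl library and at 8.09, 6.02 and 7.21 CPM in the STAT5cKO libraries, a 4.14-fold lower level (log2 fold change -2.05, SE 0.12, edgeR adjusted p = 2.49e-09). The groups were far apart, and the STAT5cKO libraries held 113 to 165 counts of it.

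Irf5 (ENSMUSG00000029771, chr6:29526625-29541871, plus strand), which encodes an activator of inflammatory cytokine genes, was at 897 and 909 CPM in STAT5fl/fl and at 568, 568 and 544 CPM in STAT5cKO with rmGM-CSF. The difference was 1.61-fold (log2 fold change -0.69, SE 0.06, edgeR adjusted p = 1.06e-07), with no overlap.

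Irf8 (ENSMUSG00000041515, chr8:120736358-120756694, plus strand), a factor that monocytes and dendritic cell precursors need, was at 253 and 260 CPM in STAT5fl/fl. In STAT5cKO it was at 148, 141 and 163 CPM, 1.70-fold lower (log2 fold change -0.76, SE 0.07, edgeR adjusted p = 5.3e-07).

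Id2 (ENSMUSG00000020644, chr12:25093799-25097140, minus strand) was at 457 and 484 CPM in STAT5fl/fl against 194, 234 and 257 in STAT5cKO. It was 2.07-fold lower (log2 fold change -1.05, SE 0.11, edgeR adjusted p = 1.66e-06), and the groups did not overlap. These 4 calls with rmGM-CSF held in each of the 12 alternatives.

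The other 5 factors were not called between the genotypes with rmGM-CSF. Cebpd had 65.8 and 61.9 CPM in STAT5fl/fl and 53.6, 55.3 and 56.1 in STAT5cKO (log2 fold change -0.21, edgeR adjusted p = 0.113), and Maf had 242 and 263 against 215, 200.3 and 204 (-0.29, adjusted p = 0.0692). Both had groups that did not overlap, as did Spi1 (559 and 555 against 494, 496 and 515 CPM, adjusted p = 0.119). In every comparison here, groups this small can also separate by chance. The share of all genes whose groups do not overlap was not counted, so a lack of overlap is a description only. The 95% interval of the log2 fold change was -0.37 to 0.35 for Cebpa and -0.64 to 0.09 for Cebpb. That of Irf5, -0.82 to -0.56, lay apart from the interval of Cebpa and overlapped that of Cebpb. Smaller differences are not excluded for Cebpa or Cebpb.

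Without stimulation, in DMEM, Irf4 was the 1 factor called between the genotypes, lower in STAT5cKO. Over all genes 2.49% were called with DMEM, 1.55% lower and 0.938% higher, and the median log2 fold change was -0.20 for the 9 factors and 0.00 (0.00127) for all genes. Irf4 had 21.8 and 22.9 CPM in STAT5fl/fl and 11.1, 10.5 and 11.2 in STAT5cKO, a 2.05-fold lower level (log2 fold change -1.03, SE 0.11, edgeR adjusted p = 4.75e-05). The call held in each of the 12 alternatives. Irf8 (249 and 259 CPM against 214, 216 and 216) and Id2 (262 and 278 against 191, 214 and 229) also had groups that did not overlap, but their adjusted p-values in edgeR were 0.0493 and 0.0578. Irf5 (mean 298 CPM against 325) and Cebpd (15.7 against 17.6) did not overlap either. Both were higher in STAT5cKO, with edgeR adjusted p-values of 0.208 and 0.407. Of the 9 estimates with DMEM, 4 lay above 0 and 5 below. Like Irf4, the summed dendritic cell markers, led by Kit, were lower in STAT5cKO under DMEM and rmGM-CSF. Only 2 of the 8 markers with DMEM and 4 of the 8 with rmGM-CSF had the higher mean in STAT5fl/fl. Zbtb46 was not called between the genotypes in any treatment (log2 fold changes -0.11 to 0.72, edgeR adjusted p 0.405 to 0.858). After 4T1 CM the sum was lower in STAT5cKO as well, and Kit was called (-1.66, adjusted p = 0.00349) although Irf4 was not. The part of these markers in the result was not tested.

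With 4T1 CM, Irf5, Irf8, Cebpd and Id2 were called lower in STAT5cKO, and Irf4 was not. All genes gave 7.7% called in either direction, 3.57% lower and 4.13% higher, the median log2 fold change was -0.23 for the 9 factors and 0.01 for all genes, and all 9 estimates were again below 0. The estimates lay nearer to 0 than with rmGM-CSF for Irf5, Irf8 and Id2, but the change was called for Irf5 alone of these 3 (Irf8 0.29, adjusted p = 0.191, and Id2 0.57, adjusted p = 0.0573). Irf8 was at 357 and 416 CPM in STAT5fl/fl and at 270, 272 and 291 in STAT5cKO (log2 fold change -0.48, SE 0.07, edgeR adjusted p = 0.000163), with 1 STAT5fl/fl library well above the other.

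Cebpd (ENSMUSG00000071637, chr16:15887286-15891031, plus strand) was at 19.9 and 24.3 CPM in STAT5fl/fl and at 14.5, 13.9 and 17.5 in STAT5cKO (log2 fold change -0.53, SE 0.10, edgeR adjusted p = 0.00208). Id2 was at 406 and 389 CPM against 305, 247 and 305 (-0.48, SE 0.11, adjusted p = 0.00548). Irf5 was at 430 and 413 CPM against 373, 364 and 338 (-0.23, SE 0.06, adjusted p = 0.00991), the weakest of the 9 calls between genotypes. The genotypes did not overlap in any of these genes.

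These 4 calls were sensitive to the libraries used, and that of Irf5 also to the processing. Irf5 lost its call in 9 of the 12 alternatives, among them TMM normalization (adjusted p = 0.0105), no filter on low counts (0.0143), the older form of the quasi-likelihood model (0.0113) and each replicate left out. No factor was called with 4T1 CM without replicate 113 or when the fit held no libraries of the other treatments. In turn, 2 were called without replicate 112, 2 without replicate 114 and 1 without replicate 115. The direction stayed below 0 for all 4 in each alternative, and the adjusted p of Irf8 reached at most 0.0179. Irf4 was low with 4T1 CM in both genotypes, at 6.27 and 6.45 CPM in STAT5fl/fl and at 6.62, 5.38 and 4.44 in STAT5cKO. The groups overlapped, and the 95% interval of its log2 fold change (-0.57 to 0.14) excludes the difference seen with rmGM-CSF.

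**Figure D3:**
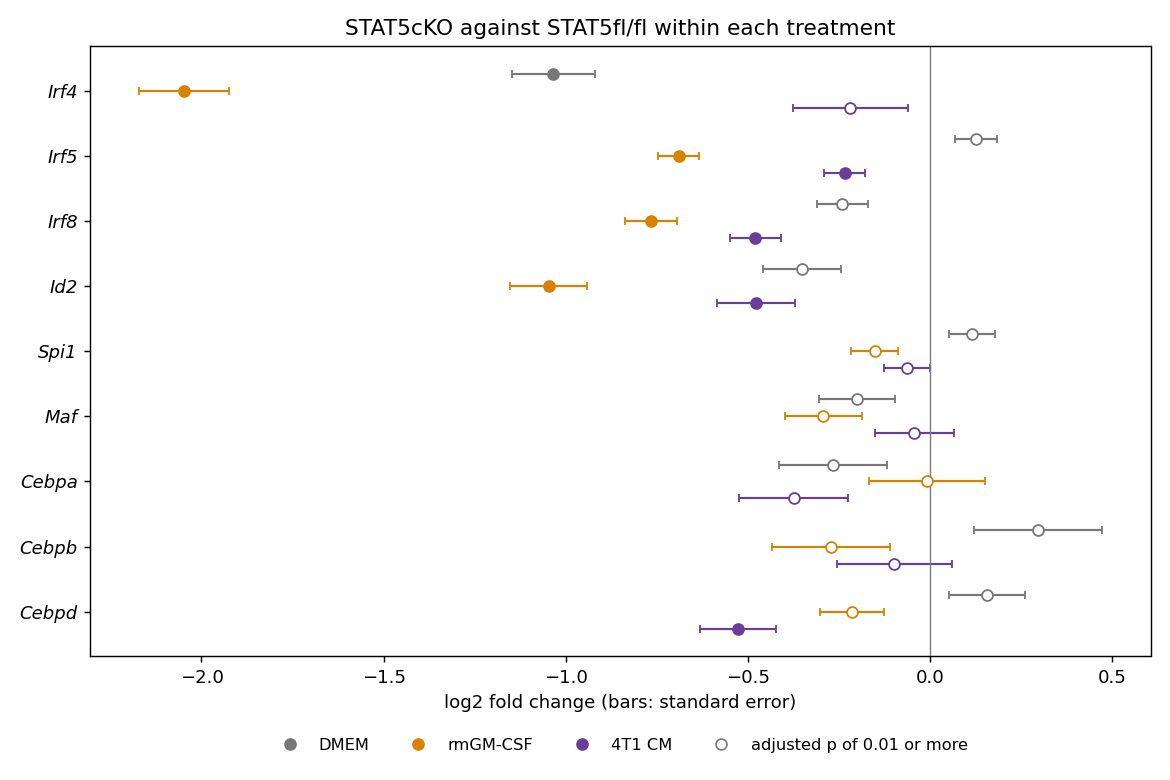
Log2 fold change of STAT5cKO against STAT5fl/fl for each factor within each treatment, with bars for the standard error; filled symbols have an adjusted p under 0.01. The lowest point is Irf4 with rmGM-CSF at -2.05, and with 4T1 CM Irf4 is at -0.22 and not called.

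Whether the genotype difference itself changed with the treatment was tested as an interaction. Between rmGM-CSF and DMEM, 4 of the 9 factors were called, all with a genotype difference that was lower with rmGM-CSF, beside 3.11% of all genes in either direction, 2.22% in this one and 0.884% in the other. The change in log2 fold change was -1.02 for Irf4 (SE 0.17, edgeR adjusted p = 0.00118), -0.82 for Irf5 (SE 0.08, adjusted p = 4.92e-06), -0.53 for Irf8 (SE 0.10, adjusted p = 0.00337) and -0.69 for Id2 (SE 0.15, adjusted p = 0.00949). Irf5 held in each of the 13 alternatives. Irf4, Irf8 and Id2 were not called without replicate 112, without 113 or without 115, with adjusted p-values of up to 0.0381, 0.0346 and 0.151. Irf8 was also lost without replicate 114 (0.0229), and Id2 without replicate 116 (0.0112) and with TMM normalization (0.0105).

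Between 4T1 CM and rmGM-CSF the genotype difference changed by 1.83 for Irf4 (SE 0.20, edgeR adjusted p = 2.85e-05) and by 0.46 for Irf5 (SE 0.08, adjusted p = 0.00304), toward a smaller deficit with 4T1 CM. Over all genes 1.47% were called, 1.32% in this direction. Irf4 held in each alternative, whereas Irf5 was lost without replicate 112, 113, 114 or 115 and with only the libraries compared, its adjusted p reaching 0.115 without replicate 113.

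Between 4T1 CM and DMEM no factor was called by edgeR, beside 1.27% of all genes (0.73% upward and 0.538% downward). An unadjusted p under 0.05 was reached by 4 of the 9. That share was not counted over all genes, so it cannot be set beside the 1.27%. DESeq2 called 3 and the random replicate effect in limma voom called 0. The lowest adjusted p-values were those of Irf4 (0.82, adjusted p = 0.0274), Cebpd (-0.68, adjusted p = 0.0145) and Irf5 (-0.36, adjusted p = 0.0194).

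The responses to each treatment were then set beside each other in both genotypes. With rmGM-CSF, Irf5, Spi1, Cebpb and Cebpd rose and Cebpa fell in STAT5fl/fl and in STAT5cKO BMDMs, whereas Irf4 and Irf8 fell in STAT5cKO and Id2 rose in STAT5fl/fl. In STAT5fl/fl, 6 of the 9 factors were called, beside 28.5% of all genes (15.9% higher and 12.6% lower), and in STAT5cKO 7 of 9, beside 23.5% (13.3% higher and 10.2% lower). The median log2 fold change of the 9 was 0.71 in STAT5fl/fl and 0.11 in STAT5cKO, with -0.01 and 0.00 (-0.00347) over all genes. The treatments within a genotype share their DMEM libraries.

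Irf5 rose from 293 and 302 CPM to 897 and 909 in STAT5fl/fl, a 3.03-fold increase (log2 fold change 1.601, SE 0.06, edgeR adjusted p = 2.43e-12). In STAT5cKO it rose from 316, 329 and 331 to 568, 568 and 544 CPM, or 1.72-fold (0.79, SE 0.05, adjusted p = 2.16e-09). The genotypes thus started from near levels, and the interaction above gives the test of the difference.

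The estimates for Irf4 had opposite signs in the genotypes. It had 21.8 and 22.9 CPM with DMEM and 29.3 and 29.3 with rmGM-CSF in STAT5fl/fl (log2 fold change 0.39, SE 0.12, edgeR adjusted p = 0.0143, not called), and fell from 11.1, 10.5 and 11.2 to 8.09, 6.02 and 7.21 CPM in STAT5cKO (-0.63, SE 0.12, adjusted p = 0.000803). Without replicate 115 the fall had an adjusted p of 0.0182. Irf8 showed no detectable change with rmGM-CSF in STAT5fl/fl (0.01, 95% interval -0.16 to 0.19), and fell from 214, 216 and 216 to 148, 141 and 163 CPM in STAT5cKO (-0.51, SE 0.06, adjusted p = 7.72e-06).

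Id2 rose from 262 and 278 to 457 and 484 CPM in STAT5fl/fl (log2 fold change 0.80, SE 0.12, edgeR adjusted p = 3.56e-05). In STAT5cKO its libraries with DMEM (191, 214 and 229) and with rmGM-CSF (194, 234 and 257) overlapped (0.11, adjusted p = 0.427). Of the 4 factors lower in STAT5cKO with rmGM-CSF, Irf5 rose in both genotypes, Id2 was called higher in STAT5fl/fl, and Irf4 and Irf8 were called lower in STAT5cKO.

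Spi1 (ENSMUSG00000002111, chr2:91082390-91115756, plus strand) rose from 330 and 350.01 to 559 and 555 CPM in STAT5fl/fl (log2 fold change 0.71, SE 0.07, edgeR adjusted p = 3.27e-07) and from 341, 390 and 374 to 494, 496 and 515 in STAT5cKO (0.45, SE 0.06, adjusted p = 1.02e-05). The difference between these responses was not called (-0.27, adjusted p = 0.119).

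Cebpa moved in the opposite direction to its relatives Cebpb and Cebpd with rmGM-CSF. Cebpa (ENSMUSG00000034957, chr7:35119293-35121928, plus strand) fell from 185 and 183 to 79.9 and 57.3 CPM in STAT5fl/fl (log2 fold change -1.43, SE 0.17, edgeR adjusted p = 3.56e-06) and from 122, 184 and 154 to 61.4, 75.7 and 67.0 in STAT5cKO (-1.17, SE 0.14, adjusted p = 4.19e-06). Cebpb (ENSMUSG00000056501, chr2:167688915-167690418, plus strand) rose from 43.3 and 33.9 to 202 and 118 CPM in STAT5fl/fl (2.05, SE 0.19, adjusted p = 1.59e-07), where replicate 112 gave the higher value in both treatments, and from 43.3, 54.6 and 44.3 to 129, 150.4 and 117 in STAT5cKO (1.48, SE 0.15, adjusted p = 7.66e-07).

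Cebpd rose 4.05-fold in STAT5fl/fl, from 15.1 and 16.3 to 65.8 and 61.9 CPM (log2 fold change 2.02, SE 0.11, edgeR adjusted p = 8.49e-11), and 3.13-fold in STAT5cKO, from 16.95, 18.5 and 17.3 to 53.6, 55.3 and 56.1 (1.65, SE 0.09, adjusted p = 1.12e-10). Its groups with and without rmGM-CSF were far apart in both genotypes. Maf (ENSMUSG00000055435, chr8:115682942-115707794, minus strand), by contrast, was at 242 and 263 CPM with rmGM-CSF and 248 and 275 with DMEM in STAT5fl/fl, and the difference was not called in either genotype (adjusted p = 0.777 and 0.278).

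With 4T1 CM, Maf and Irf4 fell and Irf8, Cebpb and Id2 rose in both genotypes. Irf5 and Cebpd were called higher in STAT5fl/fl and not in STAT5cKO, and the difference between those responses was not called. With 4T1 CM 7 of the 9 factors were called in STAT5fl/fl, beside 37.4% of all genes (19.2% higher and 18.2% lower), and 5 of 9 in STAT5cKO, beside 37.6% (19.3% higher and 18.4% lower). The median log2 fold change of the 9 was 0.49 and -0.14, with 0.02 and 0.01 over all genes.

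Cebpb rose the most, from 43.3 and 33.9 to 248 and 248 CPM in STAT5fl/fl (log2 fold change 2.68, SE 0.19, edgeR adjusted p = 3.5e-09) and from 43.3, 54.6 and 44.3 to 233, 229 and 233 in STAT5cKO (2.29, SE 0.15, adjusted p = 1.2e-09). Its libraries with 4T1 CM lay close together in both genotypes, unlike those with rmGM-CSF. Irf8 rose from 249 and 259 to 357 and 416 CPM in STAT5fl/fl (0.61, SE 0.08, adjusted p = 4.92e-06) and to 270, 272 and 291 in STAT5cKO (0.37, SE 0.06, adjusted p = 0.000117).

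Maf fell from 248 and 275 to 105 and 116 CPM in STAT5fl/fl (log2 fold change -1.24, SE 0.12, edgeR adjusted p = 1.4e-07) and from 274, 206 and 202 to 102, 116 and 103 in STAT5cKO (-1.09, SE 0.10, adjusted p = 5.13e-08). The levels with 4T1 CM overlapped between the genotypes. Irf4 fell 3.51-fold in STAT5fl/fl, to 6.27 and 6.45 CPM (-1.81, SE 0.14, adjusted p = 1.13e-08), and 1.996-fold in STAT5cKO, to 6.62, 5.38 and 4.44 (-0.997, SE 0.13, adjusted p = 4.28e-06). The genotypes differed before the treatment and overlapped after it.

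Id2 rose in STAT5fl/fl to 406 and 389 CPM (log2 fold change 0.56, SE 0.12, edgeR adjusted p = 0.000789) and in STAT5cKO to 305, 247 and 305 (0.43, SE 0.10, adjusted p = 0.0012). The first call was lost without replicate 112 (adjusted p = 0.0551) or 113 (0.0182) and the second without replicate 114 (0.0116). Cebpd reached 19.9 and 24.3 CPM in STAT5fl/fl (0.49, SE 0.11, adjusted p = 0.00177; 0.0681 without replicate 113) and 14.5, 13.9 and 17.5 in STAT5cKO (-0.20, adjusted p = 0.0906). Irf5 reached 430 and 413 CPM in STAT5fl/fl (0.50, SE 0.06, adjusted p = 3.97e-06) and 373, 364 and 338 in STAT5cKO (0.14, adjusted p = 0.0308).

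Spi1 and Cebpa were not called between 4T1 CM and DMEM in either genotype. Spi1 had 361 and 340 CPM in STAT5fl/fl and 351, 326 and 329 in STAT5cKO with 4T1 CM, which overlapped its DMEM levels. Cebpa had 131 and 163 CPM and 116, 101 and 124, below its DMEM means, with adjusted p-values of 0.114 and 0.0135.

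**Figure D4:**
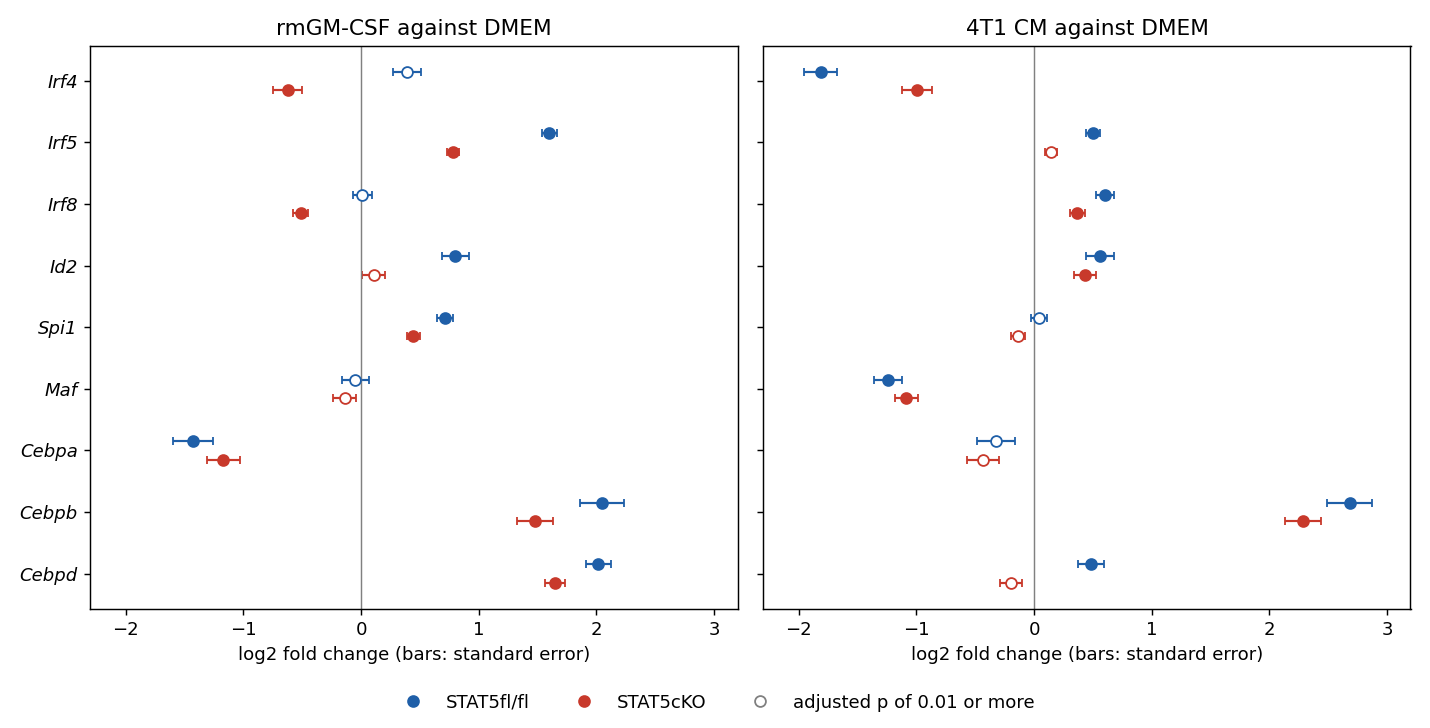
Log2 fold change of each factor with rmGM-CSF (left) and 4T1 CM (right) against DMEM, in STAT5fl/fl (blue) and STAT5cKO (red), with bars for the standard error; filled symbols have an adjusted p under 0.01. Cebpb lies far to the right in both panels, Irf4 far to the left with 4T1 CM, and Cebpd far to the right with rmGM-CSF alone.

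Set directly against each other, 4T1 CM and rmGM-CSF differed in 8 of the 9 factors in STAT5fl/fl (30.5% of all genes, 13.8% higher and 16.7% lower) and in 7 in STAT5cKO (34.1%, 16.6% higher and 17.5% lower). Irf8, Cebpa and Cebpb were higher with 4T1 CM and Maf, Irf5, Spi1 and Cebpd were lower, in both genotypes. Cebpd showed the widest gap in STAT5cKO (log2 fold change -1.84, edgeR adjusted p = 2.03e-11), and Irf4 in STAT5fl/fl (-2.20, adjusted p = 1.55e-09). The higher Cebpb in STAT5fl/fl (0.64, adjusted p = 0.00773) was not called by DESeq2 (0.0179), without replicate 114 (0.0139), without 116 (0.0119) or without 113 (0.29, adjusted p = 0.227), and the higher Cebpa in STAT5fl/fl (1.11, adjusted p = 5.62e-05) was 0.72 without replicate 113 (adjusted p = 0.0334). In STAT5cKO the call of Cebpa was lost without replicate 116 (0.66, adjusted p = 0.0102). Over all 6 comparisons of treatments, 40 of 54 tests of a factor were called, with each of the 9 factors called at least once, and over the 3 comparisons of genotypes 9 of 27 were called, in 5 of the 9 factors. Maf, Spi1, Cebpa and Cebpb were called between treatments but in no comparison of genotypes. Of all genes, 23.5% to 37.6% were called in a comparison of treatments and 2.49% to 9.8% in a comparison of genotypes. The share of all genes called in any of these comparisons was not counted, so the totals are a description only.

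Over the 15 libraries, the factors fell into a few patterns, described by Pearson correlations of log2 CPM across libraries that share treatments and replicate numbers. Spi1 and Cebpd followed each other most closely (r = 0.961), and Irf5 ran with both (0.908 with Spi1 and 0.917 with Cebpd). Cebpa ran against Irf5 (-0.834) and Cebpd (-0.829). Among all genes tested, those most like each factor were Sept8 (r = 0.964) and Kif3a (0.954) for Irf4, Sertad2 (0.993) and Cxcl10 (0.978) for Irf5, Tbc1d14 (0.984) and S1pr1 (0.974) for Irf8, and Ndrg1 (0.957) and Fcgr3 (0.941) for Id2. For Maf they were Tfeb (0.969), a lysosomal regulator, and Ddhd2 (0.968), for Spi1 Atf4 (0.989), a factor of the amino acid response, and Dpf2 (0.980), and for Cebpa Scrn3 (0.951) and Bcl9l (0.948). Cebpb was followed by Smurf1 (0.978) and Ankrd28 (0.977), and Cebpd by the copper transporter gene Slc31a2 (0.981) and Tnf (0.980). Cxcl10, a chemokine gene, showed the pattern of Irf5 at lower levels, with 80.3 ± 14.3 CPM (SD, n = 2) in STAT5fl/fl and 22.7 ± 1.77 (n = 3) in STAT5cKO with rmGM-CSF.

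The relatives and partners of the 9 factors were followed from a list of 68 further transcription factor genes, of which 59 were tested. Between the genotypes 1 was higher and 2 lower in STAT5cKO when kept in DMEM, 3 higher and 13 lower with rmGM-CSF, and 11 higher and 5 lower with 4T1 CM, with median log2 fold changes of -0.08, -0.11 and 0.12. These are 5.08%, 27.1% and 27.1% of the 59, where 2.49%, 9.8% and 7.7% of all genes were called and the medians over all genes were within 0.01 of 0. This list, too, was chosen with earlier results of these data known, so the shares are a description. The 3 with DMEM were Ets2 (log2 fold change 0.50), Tfec (-0.85) and Cebpg (-0.35). With rmGM-CSF the largest differences were in Bcl6, a repressor that opposes STAT5 in lymphocytes (4.02, edgeR adjusted p = 7.58e-16), Batf3, the partner of IRF8 in cross-presenting dendritic cells (-3.83, adjusted p = 1.82e-08), Nfil3 (-1.83, adjusted p = 2.47e-09) and Id1, a relative of Id2 (-1.73, adjusted p = 6.36e-06).

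Bcl6 fell with rmGM-CSF from 146 ± 9.61 to 16.5 ± 0.0277 CPM in STAT5fl/fl (SD, n = 2) and rose from 151 ± 7.15 to 268 ± 7.00 in STAT5cKO (n = 3). Batf3 reached 6.58 ± 0.772 CPM with rmGM-CSF in STAT5fl/fl and was between 0.445 and 0.875 CPM on average in the other 5 groups, at 5 to 23 counts a library. With 4T1 CM the largest differences between genotypes were those of Bcl6 (log2 fold change 2.78), Egr2 (-2.03), Nr4a3 (1.78) and Tfec (-1.39). Of the 5 other IRF genes tested, Irf1, named after its values were seen, was the 1 called between genotypes, with rmGM-CSF (-0.51, edgeR adjusted p = 0.000177). Maff, a small MAF gene, was lower in STAT5cKO with rmGM-CSF (-1.001, edgeR adjusted p = 3.71e-07). Of the 4 other MAF genes tested, it was the 1 called lower there, and 1 was called higher, with a median of 0.11.

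Genes known to depend on these factors were taken as a list of 32, of which 26 were tested. Between the genotypes 2 were higher and 4 lower in STAT5cKO with DMEM, 1 higher and 9 lower with rmGM-CSF, and 4 higher and 6 lower with 4T1 CM. These are 23.1%, 38.5% and 38.5% of the 26, beside the same 2.49%, 9.8% and 7.7% of all genes, with medians of 0.03, -0.28 and -0.02. The list was chosen with earlier results of these data known, so these shares do not test for an excess. Of 7 genes listed for MAF, 4 were lower in each treatment, with median log2 fold changes of -0.58 in DMEM, -0.68 after rmGM-CSF and -0.54 after 4T1 CM, although Maf was not called. The 4 were C1qb, C1qc, Mrc1 and Stab1 with DMEM, where C1qa had an adjusted p of 0.017, and C1qa, C1qb, C1qc and Mrc1 with rmGM-CSF and with 4T1 CM. C1qa, C1qb and C1qc lie close together (chr4:136880129-136898803) and were counted as separate genes. Mrc1, the mannose receptor gene, was at 321 ± 39.9 CPM in STAT5fl/fl and 88.5 ± 18.03 in STAT5cKO with rmGM-CSF (log2 fold change -1.86, edgeR adjusted p = 4.61e-06), and C1qa, a complement gene, differed by -1.11 (adjusted p = 0.000104). With 4T1 CM the MAF list also held Il10, which was higher in STAT5cKO (1.63, edgeR adjusted p = 0.00701) at low means of 1.57 against 0.507 CPM.

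Of the 4 genes listed for IRF4, the chemokine genes Ccl17 and Ccl22 were lower in STAT5cKO with rmGM-CSF. None of the 4 was called with DMEM, where Irf4 was lower, and Ccl17 was the 1 called with 4T1 CM, where Irf4 was not (51 and 77 counts in STAT5fl/fl, 0 or 1 in STAT5cKO, adjusted p = 3.25e-08). With rmGM-CSF, Ccl17 had 396 and 406 counts in the STAT5fl/fl libraries and 0 or 1 in those of STAT5cKO, and Ccl22 was at 19.0 ± 3.80 and 4.66 ± 0.723 CPM (log2 fold change -2.04, adjusted p = 3.27e-06 in edgeR). None of the 5 tested genes listed for IRF8 was called between genotypes in any treatment, and of the genes listed for IRF5 only Tnf was tested, with 645 ± 18.8 CPM in STAT5fl/fl and 716 ± 12.3 in STAT5cKO with rmGM-CSF. Of the 7 genes listed for PU.1, Lyz2 was higher in STAT5cKO in each treatment, by 0.60 to 0.63 on the log2 scale, and Cd14 was higher with DMEM (0.48) and with 4T1 CM (0.51). Btk, a kinase gene, was lower with rmGM-CSF (-0.35, adjusted p = 0.00128) and 4T1 CM (-0.36, adjusted p = 0.00109), and Csf3r, the G-CSF receptor gene, with rmGM-CSF (-0.42, adjusted p = 0.00027). Btk, Csf3r and C1qc were named after their values were seen.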

How the data were processed

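The authors trimmed paired reads with Trimmomatic 0.33, aligned them to GRCm38 with HISAT2 2.1.0 and counted them per gene with featureCounts 1.6.2, using the Ensembl annotation and the strand of the gene. The raw counts per gene and library were used as the authors deposited them, with their exon lengths, and 55144 of 55385 gene identifiers matched a symbol. Libraries that the table's header names without counts were not analysed here. Because reads were counted by strand, antisense exons that overlap these genes were kept apart.

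The tests were run with edgeR 4.0.16 under R 4.3.3. Genes with CPM over 1 in at least 2 of the 15 libraries were kept (13005), normalization factors followed the RLE method (0.945 to 1.08), and 1 quasi-likelihood model held the 6 group means. Genotypes within treatments, treatments within genotypes and their interactions gave 12 comparisons, each adjusted by Benjamini-Hochberg over all genes tested, with calls at an adjusted p under 0.01. FPKM divides the normalized CPM by exon length. Correlations used log2 CPM with a prior count of 2. The scripts were tested on simulated data.

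The 9 factors and the lists of other factors, dependent genes and markers were chosen with earlier results of these data known. The genes named were the 9 factors, Stat5a, Stat5b and Cish, the 2 genes most correlated with each factor, up to 4 called genes with the largest fold changes from the lists in each comparison, and marker genes, except where a gene is said to have been named after its values were seen. Alternatives were TMM normalization, no filter, DESeq2 1.42.0, a threshold of 0.05, only the libraries compared, replicate blocks (limma 3.58.1 for the random effect), leaving out each replicate number, levels by library total alone, and, added after seeing the data, the older (legacy) form of that model.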

Additional observations from a re-analysis of the deposited data

Results flagged for a closer look

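In 6 tests the difference between the genotypes itself differed between treatments, by the interaction term of the edgeR model over all 15 libraries. From DMEM to rmGM-CSF, the log2 fold change of STAT5cKO against STAT5fl/fl moved by -1.02 for Irf4, -0.82 for Irf5, -0.53 for Irf8 and -0.69 for Id2. From rmGM-CSF to 4T1 CM it moved by 1.83 for Irf4 and by 0.46 for Irf5. The rmGM-CSF libraries are shared by both sets of tests.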

How the results depend on the processing

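Of 55 called fold changes of the 9 factors, tried under up to 13 alternatives, 658 of 706 values kept their direction and their call, 48 kept the direction without the call and 0 reversed. The threshold of 0.05 was applied to the same fit, so its 55 values could neither lose a call nor reverse. Group levels by library total alone moved by less than 1 SD in 31 of 54 cases and by more in 23. The number of factors called in the DMEM genotype comparison was 2 at a threshold of 0.05. With 4T1 CM it was 0 from that treatment's libraries alone and 0 to 3 when a replicate was left out (0 without replicate 113). For the interaction of rmGM-CSF against DMEM, leaving out a replicate gave 1 to 3 factors, with 1 without replicate 112, 113 or 115. For 4T1 CM against DMEM it was 1 without the filter, 3 with DESeq2 and 3 at the 0.05 threshold, and for 4T1 CM against rmGM-CSF 1 from the compared libraries alone and 1 to 2 when a replicate was left out. Over all genes, DESeq2 called 540 in place of 324 between genotypes in DMEM, 342 in place of 165 for 4T1 CM minus DMEM and 305 in place of 191 for 4T1 CM minus rmGM-CSF. The 0.05 threshold gave 910, 2145 and 1957 genes between genotypes, in place of 324, 1275 and 1001, and 622, 423 and 346 for the interactions, in place of 404, 165 and 191. The compared libraries alone gave 292 genes between genotypes with 4T1 CM and 79 for 4T1 CM minus DMEM. Without replicate 113 the genotype comparisons gave 47, 554 and 335 genes, the STAT5fl/fl treatment comparisons 1747 (rmGM-CSF against DMEM), 2680 (4T1 CM against DMEM) and 1706 (4T1 CM against rmGM-CSF), and the interactions 135, 24 and 79. Without replicate 115, rmGM-CSF against DMEM in STAT5cKO gave 1835. Leaving out a STAT5fl/fl replicate leaves 1 library in each of those groups, whose spread is then taken from the other groups. The cause of these changes was not tested.

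Libraries with the same replicate number deviated together with correlations of 0.0927 to 0.213 in STAT5fl/fl (6 pairs) and 0.0548 to 0.214 in STAT5cKO (9 pairs), not all over 0.1, and the labels do not say what the number marks. Each library correlated best with its own number in 6 of 6 and 9 of 9 cases, a hint from the data and not from the design. In STAT5fl/fl the libraries of a group deviate from its mean by opposite amounts, so different numbers mirrored the same number (means -0.142 and 0.142). The 6 pairs are thus not independent, and 6 of 6 follows from their positive sign. In STAT5cKO centering on the group mean also lowers the values for different numbers (mean -0.0784). The consensus correlation of replicate numbers was 0.0681. With a replicate block as a fixed term 46 of 46 called fold changes kept their call, and for 4T1 CM minus DMEM 1 factor and 302 genes were called. With the replicate block as a random effect 55 of 55 were kept. The fixed block could not be fitted for the genotype comparisons, since no number occurs in both genotypes.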
